A study of Zea mays with 28 samples.

Results

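The genes described here are maize genes whose transcript levels stood well above controls 24 h after each kind of leaf damage studied, feeding by *Oligonychus pratensis*, feeding by *Tetranychus urticae* and mechanical wounding, and were kept below an upper limit on a log scale 2 h after each of them. Levels are CPM, a gene's reads per 1000000 counted reads of its library, and D is the log2 of a group's mean CPM plus 1 minus the same value in control leaves. A gene was taken when D was at least 1.5 in all 3 groups at 24 h and under 0.5 in all 3 groups at 2 h. Of 39625 genes, 26 met the rule (0.0656%). The same values chose the genes, so their differences from controls at 24 h and at 2 h are given as a description, without a test. The limit at 2 h does not mean that no gene was above controls then, since 1 CPM was added before taking logs and several rare transcripts were severalfold above controls in wounded 2 h leaves. Only comparisons between treatments were tested. The rule set no difference between treatments, but its limits bound the level in each group. This matters most at 2 h, where the tests rest on values that the rule also used.

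All plants were of the maize inbred line B73, 22 days old, and leaf 4 was sampled. The 7 groups of 4 leaves, each leaf from a separate plant, were *O. pratensis* at 24 h, *T. urticae* at 24 h, wounding at 24 h, *O. pratensis* at 2 h, *T. urticae* at 2 h, wounding at 2 h and untreated controls. *O. pratensis*, the Banks grass mite, is a grass specialist, and *T. urticae*, the two-spotted spider mite, is a generalist. Adult females were placed inside wax barriers at 200 mites per leaf section for 24 h and 400 per leaf section for 2 h, so time and mite number changed together, and for wounding the enclosed leaf was pressed lightly between sheets of sandpaper. Plants stood in randomized blocks. Control leaves also carried the wax barriers, and all 28 leaves were harvested at one time of day. Every D value therefore rests on the same 4 control leaves.

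Spider mites pierce leaf cells with their stylets and suck out the contents of mesophyll cells. Damaged maize leaves make jasmonates within minutes to hours, and these hormones switch on a first set of defence genes. A later set commonly follows, among it genes for pathogenesis-related (PR) proteins, small proteins and enzymes that are secreted or stored in the vacuole and act against fungi and other attackers. Chitinases, which cut the chitin of fungal walls and arthropod cuticles and gut linings, are a large class of PR proteins.

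Libraries held between 14721310 and 32891100 counted reads, with a median of 26440384. All 5 defining markers of C4 leaf tissue were present in every leaf: transcripts of PEP carboxylase and pyruvate orthophosphate dikinase for mesophyll, and of NADP-malic enzyme and 2 Rubisco small subunit genes for bundle sheath. Their sums were below all controls in each leaf at 24 h and each wounded 2 h leaf, whereas mite-infested 2 h leaves overlapped the controls. Singly, pyruvate orthophosphate dikinase and NADP-malic enzyme were below all controls in the 24 h and wounded 2 h groups. PEP carboxylase was too, except in wounded 24 h leaves. Both Rubisco small subunit genes overlapped the controls in each of these groups. For GRMZM2G098520 the range was 2830 to 3241 CPM in wounded 24 h leaves and 2421 to 3561 CPM in controls. The 2 mesophyll markers summed to 44070 to 51011 CPM in *O. pratensis* 24 h leaves, 33370 to 45107 CPM in *T. urticae* 24 h leaves, 52665 to 55437 CPM in wounded 24 h leaves, 60416 to 64431 CPM in *O. pratensis* 2 h leaves, 58837 to 65783 CPM in *T. urticae* 2 h leaves, 42732 to 48232 CPM in wounded 2 h leaves, and 59880.0 to 71418 CPM in controls. The 3 bundle sheath markers summed to 9991 to 11133 CPM in *O. pratensis* 24 h leaves, 7247 to 10912 CPM in *T. urticae* 24 h leaves, 11451 to 12421 CPM in wounded 24 h leaves, 12555 to 15229 CPM in *O. pratensis* 2 h leaves, 12527 to 15865 CPM in *T. urticae* 2 h leaves, 9914 to 10879 CPM in wounded 2 h leaves and 12694 to 15157 CPM in controls. In whole-leaf RNA, fewer cells of a type and less RNA per cell cannot be told apart, and the part of this shift in the results below was not tested.

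The limits at 24 h were met by 1092 genes in *O. pratensis* leaves (2.76%), 1432 genes in *T. urticae* leaves (3.61%) and 529 genes in wounded leaves (1.34%), and by 243 genes in all 3 groups (0.613%). The late genes were 10.7% of those 243. Of the 243 genes, 152 had a D of at least 0.5 already at 2 h with *O. pratensis*, 102 with *T. urticae* and 213 with wounding. Wounding at 2 h alone kept out 62 genes that met the other 5 limits.

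Across the 26 late genes the median D at 24 h was 2.41 with *O. pratensis* (1.73 to 5.53), 2.47 with *T. urticae* (1.52 to 5.21) and 2.27 with wounding (1.51 to 4.66). At 2 h the medians were 0.03, 0.07 and 0.21 in the same order of treatments. Over the 31660 genes with at least 1 read, the median D was 0.03, 0.07 and 0.04 at 24 h and 0 in each group at 2 h. For each of the 26 genes the 12 leaves at 24 h were all higher than the other 16 leaves. The mean of log2(CPM + 1) over the 26 genes was 3.37 to 4.11 in the leaves at 24 h, against 0.84 to 1.32 in the leaves at 2 h and the controls, with no leaf between. The genes did not share one ranking of the treatments: the highest group at 24 h was *O. pratensis* for 7 genes, *T. urticae* for 9 and wounding for 10, and wounding was the lowest group for 14.

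**Figure D1:**
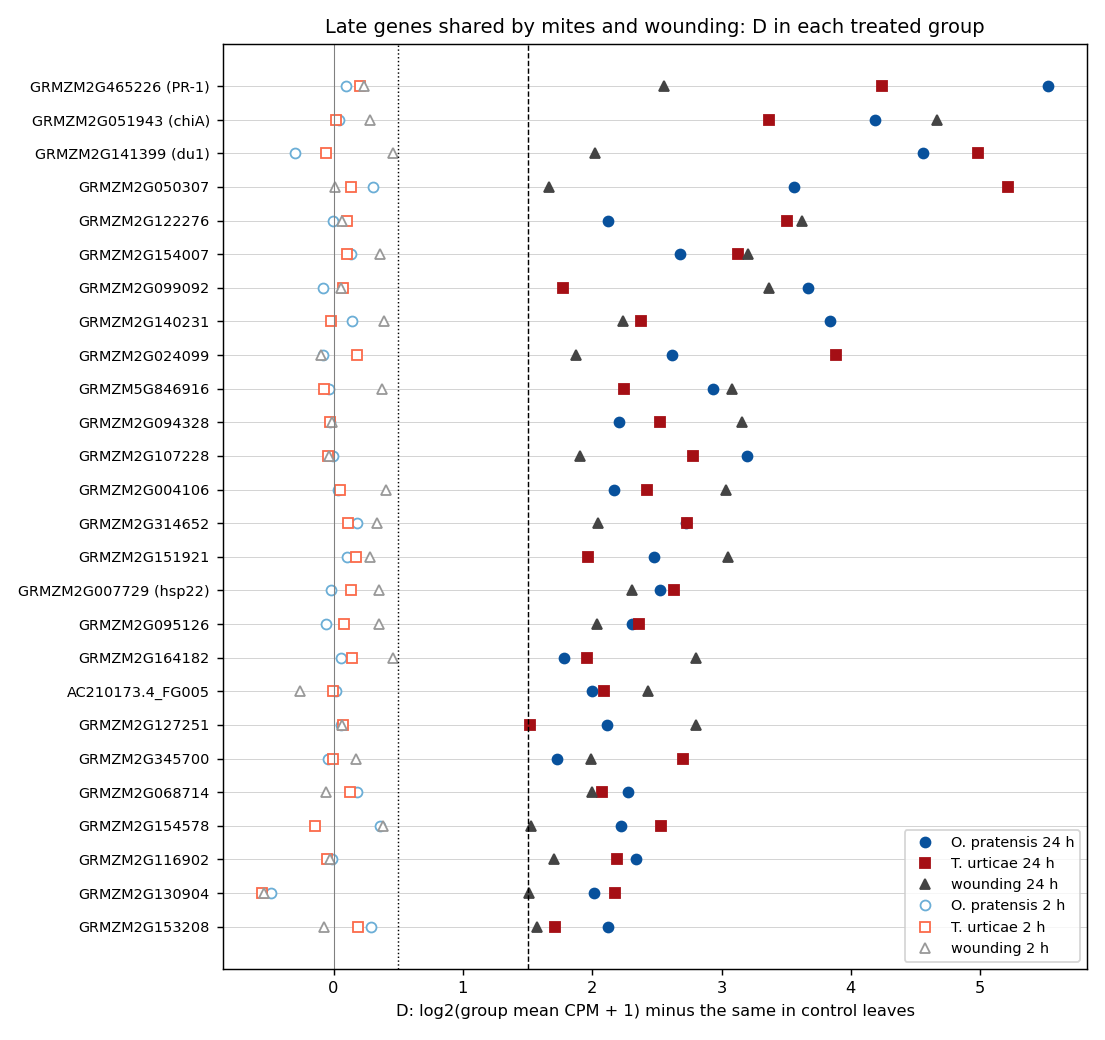
D (log2 of the group mean CPM plus 1, minus the same in control leaves, x axis) of the 26 late genes (rows, ordered by their mean D at 24 h) in 6 treated groups of 4 leaves; filled symbols are 24 h groups, open symbols 2 h groups, and the dashed and dotted lines mark the limits of 1.5 and 0.5 that chose the genes. The order of the filled symbols differs from row to row: wounding is far below both mites for PR-1, du1 and GRMZM2G050307 and above both for chiA and GRMZM2G127251.

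The genes nearest to the limits show how sharp the choice was. Just inside were GRMZM2G130904 with a D of 1.51 in wounded 24 h leaves, GRMZM2G127251 with 1.52 in *T. urticae* 24 h leaves and GRMZM2G154578 with 1.53 in wounded 24 h leaves. Just outside were GRMZM2G038281, GRMZM2G138800 and the PR-5 gene GRMZM2G402631, with D values of 0.51, 0.53 and 0.54 in wounded 2 h leaves. GRMZM2G402631 also had 0.51 in *O. pratensis* 2 h leaves, and GRMZM2G138800 also had 1.48 in wounded 24 h leaves, so both missed more than 1 limit.

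The RefSeq gene table matched 21 of the 26 identifiers to 1 gene each and 5 to none, and gave a name that tells a function to only 4. These were GRMZM2G465226 (PR-1, also prp4), GRMZM2G051943 (chiA, a chitinase), GRMZM2G007729 (hsp22) and GRMZM2G141399 (du1, dull1). Best matches between maize and *Arabidopsis* proteins, taken from a shortened copy of the study's own table, named a possible role for 3 more, and partners of other late genes may stand in the rows that were not used here. The partner of AC210173.4_FG005 in *Arabidopsis* is ferulate 5-hydroxylase, which makes the precursors of syringyl lignin, that of GRMZM2G004106 is plantacyanin, a small extracellular copper protein, and that of GRMZM2G024099 is an apoplastic aspartyl protease. The partner of GRMZM2G007729 is a mitochondrial small heat shock protein.

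PR-1 (GRMZM2G465226), a small secreted protein widely used as a marker of salicylate-dependent defence, had the largest D of the 26 genes, 5.53 in *O. pratensis* 24 h leaves. It had 114, 77.9, 178 and 224 CPM in *O. pratensis* 24 h leaves, 35.4, 70.0, 54.2 and 81.9 CPM in *T. urticae* 24 h leaves and 16.5, 14.5, 25.4 and 16.1 CPM in wounded 24 h leaves. The 16 leaves at 2 h and of the controls held 0.524 to 5.32 CPM. Wounded leaves at 24 h therefore lay below every mite-infested leaf and above every leaf of the earlier time and the controls, and the 2 mite groups overlapped.

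The chitinase gene chiA (GRMZM2G051943) had almost no reads before the late time point: 3 reads in the 4 *O. pratensis* 2 h leaves, 2 in *T. urticae* 2 h leaves, 24 in wounded 2 h leaves and 1 in the controls. It had 17.2, 12.2, 21.5 and 18.7 CPM in *O. pratensis* 24 h leaves, 11.2, 7.59, 8.16 and 10.7 CPM in *T. urticae* 24 h leaves and 17.4, 20.6, 31.5 and 28.6 CPM in wounded 24 h leaves. Here the *T. urticae* leaves were below all leaves of the other 24 h groups, and wounded leaves held the highest values. From summed reads, the ratio to controls was 1857 in *O. pratensis* 24 h leaves with a 95% exact counting interval of 333 to 73382, 1015 in *T. urticae* leaves (182 to 40143) and 2669 in wounded leaves (479 to 105443). With 1 control read these ratios fix little more than their lower ends.

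The small heat shock gene hsp22 (GRMZM2G007729), whose product is a chaperone of mitochondria, stood at similar levels in the 3 groups at 24 h. It had 5.93, 4.67, 10.2 and 4.59 CPM in *O. pratensis* 24 h leaves, 5.13, 6.82, 4.84 and 10.9 CPM in *T. urticae* 24 h leaves and 4.57, 4.09, 7.57 and 5.11 CPM in wounded 24 h leaves, against 0.0811 to 0.824 CPM in the other leaves. The 3 groups at 24 h overlapped, with D values of 2.52, 2.63 and 2.31 for *O. pratensis*, *T. urticae* and wounding.

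The gene du1 (GRMZM2G141399) encodes a starch synthase, known from the dull endosperm mutant of maize kernels. It had 18.7, 19.6, 83.4 and 18.99 CPM in *O. pratensis* 24 h leaves, 14.6, 65.9, 30.5 and 80.2 CPM in *T. urticae* 24 h leaves and 5.93, 4.72, 6.93 and 3.50 CPM in wounded 24 h leaves, against 0.0679 to 1.504 CPM in the other leaves. Replicate 3 of *O. pratensis* and replicates 2 and 4 of *T. urticae* were far above the remaining mite-infested leaves, so that the mite groups were wide, while the 4 wounded leaves were close together and below all 8 of them.

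The 3 genes with an *Arabidopsis* partner of known role differed in their order of treatments. GRMZM2G024099, the gene paired with the aspartyl protease, had 5.30, 4.89, 7.16 and 7.59 CPM in *O. pratensis* 24 h leaves, 14.9, 15.6, 15.2 and 19.9 CPM in *T. urticae* 24 h leaves and 2.81, 2.98, 4.83 and 2.61 CPM in wounded 24 h leaves, against 0 to 0.584 CPM in the other leaves, and its 3 groups at 24 h did not overlap. GRMZM2G004106, paired with plantacyanin, had 3.09, 3.19, 3.77 and 3.98 CPM in *O. pratensis* 24 h leaves, 3.52, 3.94, 4.79 and 5.21 CPM in *T. urticae* 24 h leaves and 8.87, 9.61, 4.59 and 5.70 CPM in wounded 24 h leaves. It had no read in any control leaf, so only the lower end of the exact counting interval can be given for its ratio to controls. That was 101 in *O. pratensis* 24 h leaves, 128 in *T. urticae* 24 h leaves and 209 in wounded 24 h leaves. AC210173.4_FG005, paired with ferulate 5-hydroxylase, had 3.72, 3.15, 6.48 and 6.56 CPM in *O. pratensis* 24 h leaves, 3.18, 5.01, 5.78 and 7.54 CPM in *T. urticae* 24 h leaves and 6.12, 6.53, 6.45 and 9.16 CPM in wounded 24 h leaves, against 0.148 to 0.975 CPM in the other leaves, and the groups at 24 h overlapped.

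**Figure D2:**
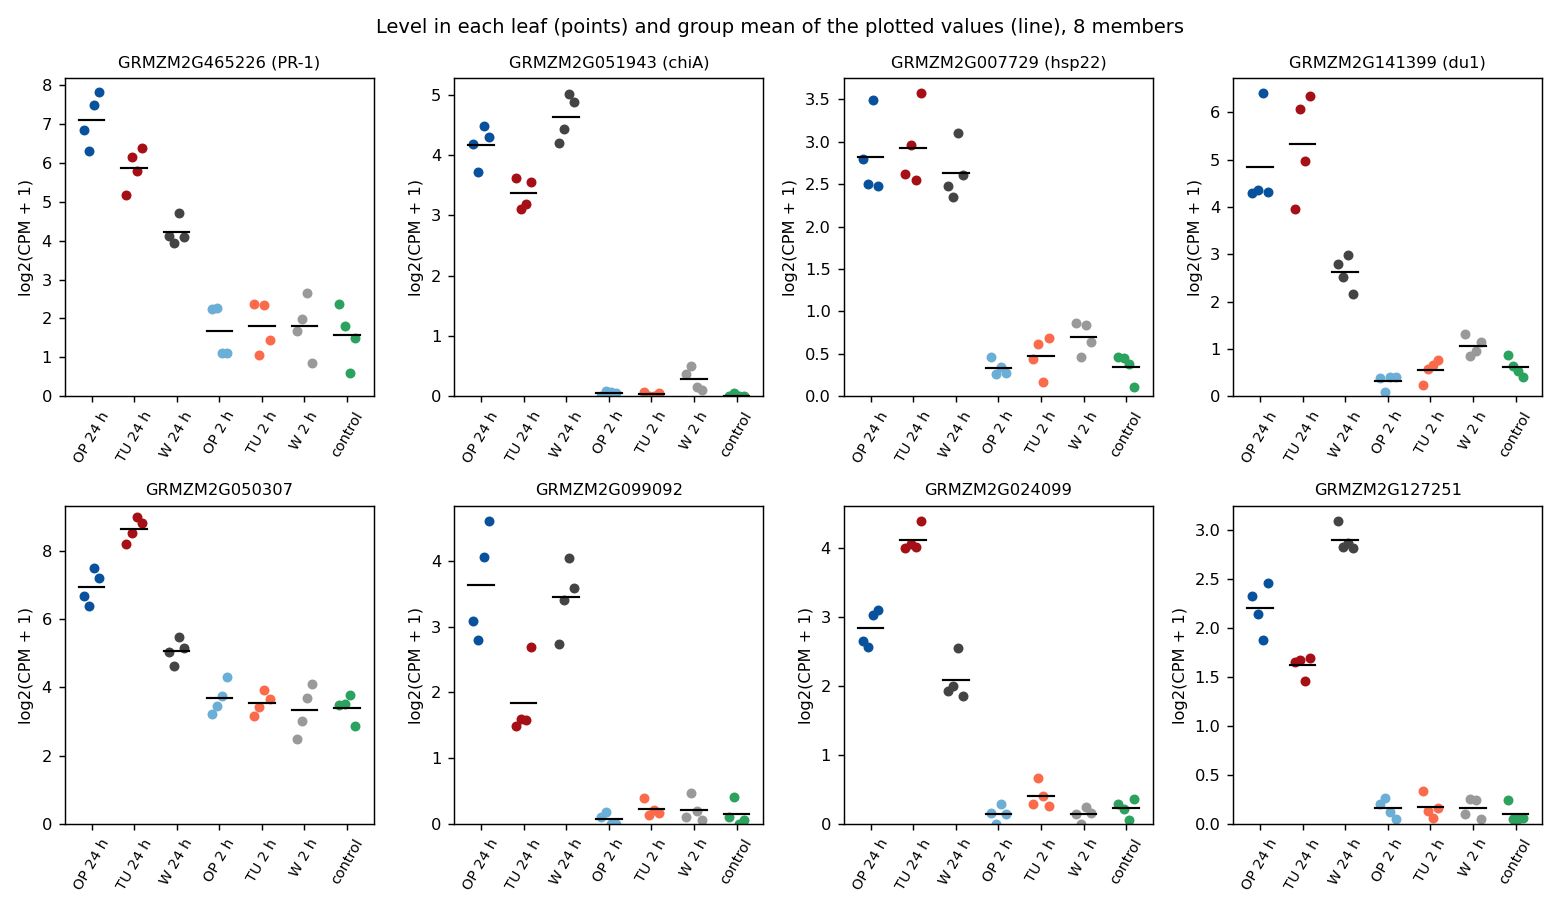
log2(CPM + 1) of 8 late genes in each leaf (y axis; points, 4 leaves per group, with the mean of the plotted values as a line) in *O. pratensis* (OP), *T. urticae* (TU) and wounded (W) leaves at 24 h, the same treatments at 2 h, and controls. All leaves at 24 h lie above all others in each panel, and among them wounded leaves are lowest for PR-1, du1, GRMZM2G050307 and GRMZM2G024099, but highest for GRMZM2G127251.

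A further 5 genes without a named role were among the 8 with the highest mean CPM at 24 h. GRMZM2G050307 had 100, 82.6, 180.4 and 144 CPM in *O. pratensis* 24 h leaves, 293, 362, 502 and 443 CPM in *T. urticae* 24 h leaves and 32.0, 23.5, 43.4 and 34.2 CPM in wounded 24 h leaves, against 4.58 to 18.6 CPM in the other leaves, and its 3 groups at 24 h did not overlap. GRMZM2G345700 had 93.1, 74.7, 75.0 and 101 CPM in *O. pratensis* 24 h leaves, 185, 173, 149 and 171 CPM in *T. urticae* 24 h leaves and 78.1, 94.3, 146 and 94.4 CPM in wounded 24 h leaves. The *T. urticae* leaves were above all leaves of the other groups. Its controls were uneven, at 20.9, 56.6, 6.51 and 16.9 CPM, and the highest control leaf came near to the lowest leaf at 24 h. GRMZM2G095126 had 98.0, 69.3, 118 and 129.5 CPM in *O. pratensis* 24 h leaves, 94.8, 92.4, 113 and 131 CPM in *T. urticae* 24 h leaves and 82.8, 86.3, 90.3 and 84.7 CPM in wounded 24 h leaves, against 15.1 to 29.2 CPM elsewhere. Its *O. pratensis* leaves overlapped both other groups, the *T. urticae* leaves were above all wounded leaves, and its D values were within 2.04 to 2.36. GRMZM2G314652 had 40.9, 36.2, 60.5 and 46.2 CPM in *O. pratensis* 24 h leaves, 31.8, 49.5, 39.9 and 63.0 CPM in *T. urticae* 24 h leaves and 25.6, 25.2, 29.4 and 33.0 CPM in wounded 24 h leaves, against 3.07 to 10.9 CPM in the other leaves, with the wounded leaves in the lower part of the range. GRMZM2G154007 had 18.8, 19.6, 23.2 and 26.4 CPM in *O. pratensis* 24 h leaves, 25.9, 26.3, 28.7 and 40.1 CPM in *T. urticae* 24 h leaves and 29.6, 29.2, 33.3 and 36.3 CPM in wounded 24 h leaves, against 1.61 to 4.46 CPM, with the wounded leaves in the upper part.

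The late genes called in none of the 4 comparisons given below included GRMZM2G068714, GRMZM2G116902, GRMZM2G130904, GRMZM2G153208 and GRMZM2G154578. The D values of those genes at 24 h were 2.01 to 2.34 with *O. pratensis*, 1.71 to 2.53 with *T. urticae* and 1.51 to 2.00 with wounding. Wounding was the lowest of the 3 groups for each of them, and also for the uncalled hsp22, GRMZM2G095126 and GRMZM2G314652. In the other uncalled genes the highest group was wounding (AC210173.4_FG005, GRMZM2G094328 and GRMZM2G154007) or *T. urticae* (GRMZM2G345700). Most of the 26 genes were at low levels in the controls. Of the 26 genes, 18 had a control mean under 1 CPM, and 3 had only 1 to 3 reads in all controls together. The lowest group mean at 24 h was 2.08 CPM. In GRMZM2G094328, 2 control reads gave ratios to controls of 199 in *O. pratensis* 24 h leaves (exact counting interval 54.8 to 1652), 264 in *T. urticae* 24 h leaves (72.7 to 2190) and 441 in wounded 24 h leaves (122 to 3647). These intervals cover counting error only. Low levels also mean that D understates the change, because 1 CPM was added before taking logs. The spread between leaves of one group, as the coefficient of variation, had a median over the 26 genes of 28.2% in *O. pratensis*, 23.8% in *T. urticae* and 23.4% in wounded leaves at 24 h.

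Differences between leaves with the specialist and leaves with the generalist mite were tested with edgeR's quasi-likelihood test over 22339 genes. A gene was called when its adjusted p did not exceed 0.01 and its log2 fold change was 1 or more in either direction. All 26 late genes passed the filter on low counts, 14 of them also on the controls and 2 h leaves alone, whereas 12 entered through their 24 h leaves. Between *O. pratensis* and *T. urticae* at 24 h, 2 of the 26 were called higher, against 0.421% of all tested genes, and 3 were called lower, against 0.479%. The median log2 fold change was 0.01 over the 26 genes and −0.01 over all genes, and 13 genes had each sign. With *O. pratensis* the called higher genes were GRMZM2G099092 and GRMZM2G140231, and the called lower ones were GRMZM2G050307, GRMZM2G122276 and GRMZM2G024099. Of these, GRMZM2G099092, GRMZM2G122276 and GRMZM2G024099 entered the test only through their 24 h leaves.

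GRMZM2G099092 had 7.48, 5.95, 15.7 and 23.3 CPM in *O. pratensis* 24 h leaves, 1.81, 2.01, 1.99 and 5.43 CPM in *T. urticae* 24 h leaves and 5.63, 9.64, 15.5 and 11.01 CPM in wounded 24 h leaves, a log2 fold change between the mites of 2.31 ± 0.42 (SE; adjusted p = 0.00166). *T. urticae* leaves were low apart from replicate 4, and the wounded leaves overlapped the *O. pratensis* leaves. The call was lost without *T. urticae* replicate 2 or 3 or *O. pratensis* replicate 4, with log2 fold changes from 1.87 to 2.81 over all leaves left out in turn and an adjusted p of at most 0.0126. GRMZM2G140231 had 24.8, 17.2, 29.01 and 37.5 CPM in *O. pratensis* 24 h leaves, 7.57, 8.10, 10.5 and 10.7 CPM in *T. urticae* 24 h leaves and 7.61, 5.63, 10.3 and 9.57 CPM in wounded 24 h leaves, and the *O. pratensis* leaves were above all leaves of the other 2 groups, with a log2 fold change between the mites of 1.65 ± 0.23 (SE; adjusted p = 0.000116).

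GRMZM2G050307, with the values given above, was lower with *O. pratensis*, at −1.57 ± 0.30 (SE; adjusted p = 0.00287), and lost the call without *T. urticae* replicate 3 or *O. pratensis* replicate 1 or 2 (highest adjusted p 0.0175). GRMZM2G122276 had 4.49, 4.89, 3.18 and 3.16 CPM in *O. pratensis* 24 h leaves, 15.5, 10.9, 11.4 and 9.70 CPM in *T. urticae* 24 h leaves and 13.6, 10.7, 13.1 and 14.4 CPM in wounded 24 h leaves, and the *O. pratensis* leaves were below all leaves of the other 2 groups. Its log2 fold change was −1.50 ± 0.27 (SE; adjusted p = 0.00123). GRMZM2G024099 was lower with *O. pratensis* at −1.30 ± 0.24 (SE; adjusted p = 0.00161), and without *O. pratensis* replicate 1 its adjusted p was 0.0104. Without *T. urticae* replicate 3 or *O. pratensis* replicate 1, 3 of the 26 genes were called between the mites. PR-1, at 1.40 ± 0.41 (SE; adjusted p = 0.0471), did not pass the limit on p, and chiA, at 0.97 ± 0.21 (SE; adjusted p = 0.00668), did not reach the fold limit. The leaves of the 2 mites did not overlap for 5 genes higher and 4 genes lower with *O. pratensis*, against 13.4% of all genes in either direction.

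Mite feeding was compared with wounding at 24 h by the mean of the 2 mite groups. Of the 26 late genes 5 were called higher with mites, against 8.34% of all tested genes, and 3 lower, against 3.57%. The median log2 fold change was 0.20 over the 26 genes and 0.01 over all genes. The 5 higher genes were du1 at 2.88 ± 0.41 (SE; adjusted p = 2.95e-06), GRMZM2G050307 at 2.70 ± 0.30 (SE; adjusted p = 5.33e-08), PR-1 at 2.32 ± 0.40 (SE; adjusted p = 3.26e-05), GRMZM2G024099 at 1.54 ± 0.22 (SE; adjusted p = 3.11e-06) and GRMZM2G107228 at 1.24 ± 0.26 (SE; adjusted p = 0.000356). In each of these 5 all 8 mite-infested leaves were above the 4 wounded leaves, and for 2 other genes all 8 were below, while such a gap in either direction was seen in 27.8% of all genes. GRMZM2G107228 had 9.93, 4.89, 11.3 and 10.6 CPM in *O. pratensis* 24 h leaves, 7.18, 7.63, 4.55 and 7.09 CPM in *T. urticae* 24 h leaves and 3.38, 3.82, 2.95 and 2.47 CPM in wounded 24 h leaves. For du1 the fold change was 7.34, for GRMZM2G050307 6.48 and for PR-1 4.99. Beside these values, the mesophyll marker sums were lower in each mite-infested 24 h leaf than in each wounded 24 h leaf, and the part of that difference in the fold changes was not tested.

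The 3 genes lower with mites than after wounding were GRMZM2G127251 at −1.29 ± 0.19 (SE; adjusted p = 3.81e-06), GRMZM2G164182 at −1.23 ± 0.28 (SE; adjusted p = 0.00074) and GRMZM2G151921 at −1.04 ± 0.22 (SE; adjusted p = 0.00044). GRMZM2G127251 had 4.04, 3.43, 2.67 and 4.51 CPM in *O. pratensis* 24 h leaves, 2.15, 2.19, 1.75 and 2.25 CPM in *T. urticae* 24 h leaves and 7.55, 6.09, 6.29 and 6.04 CPM in wounded 24 h leaves, and GRMZM2G164182 had 1.97, 1.63, 2.88 and 3.44 CPM in *O. pratensis* 24 h leaves, 3.32, 1.37, 2.94 and 4.04 CPM in *T. urticae* 24 h leaves and 6.62, 5.53, 6.11 and 5.90 CPM in wounded 24 h leaves. In both the wounded leaves were above all mite-infested leaves. GRMZM2G151921 had 3.12, 3.97, 6.31 and 7.83 CPM in *O. pratensis* 24 h leaves, 2.64, 3.04, 2.89 and 5.07 CPM in *T. urticae* 24 h leaves and 6.92, 8.07, 9.76 and 8.75 CPM in wounded 24 h leaves, its *O. pratensis* leaves reached the range of the wounded leaves, and the call was lost without wounded replicate 3 or *O. pratensis* replicate 1 or 2, each time at a log2 fold change just short of the limit (−0.95 at the smallest). A further 4 genes had an adjusted p under 0.01 and a log2 fold change just short of −1, namely chiA at −0.997 ± 0.17 (SE; adjusted p = 3.36e-05), GRMZM2G094328 at −0.99 ± 0.24 (SE; adjusted p = 0.00222), GRMZM2G122276 at −0.97 ± 0.21 (SE; adjusted p = 0.000575) and GRMZM2G004106 at −0.94 ± 0.24 (SE; adjusted p = 0.00272). On the higher side, GRMZM2G140231 (0.88 ± 0.20, SE; edgeR adjusted p = 0.00103) and GRMZM2G154578 (0.87 ± 0.23, SE; edgeR adjusted p = 0.0036) also passed the limit on p but not on fold change. So chiA and PR-1, the 2 named pathogenesis-related genes of the group, had fold changes of opposite sign between mite feeding and wounding.

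**Figure D3:**
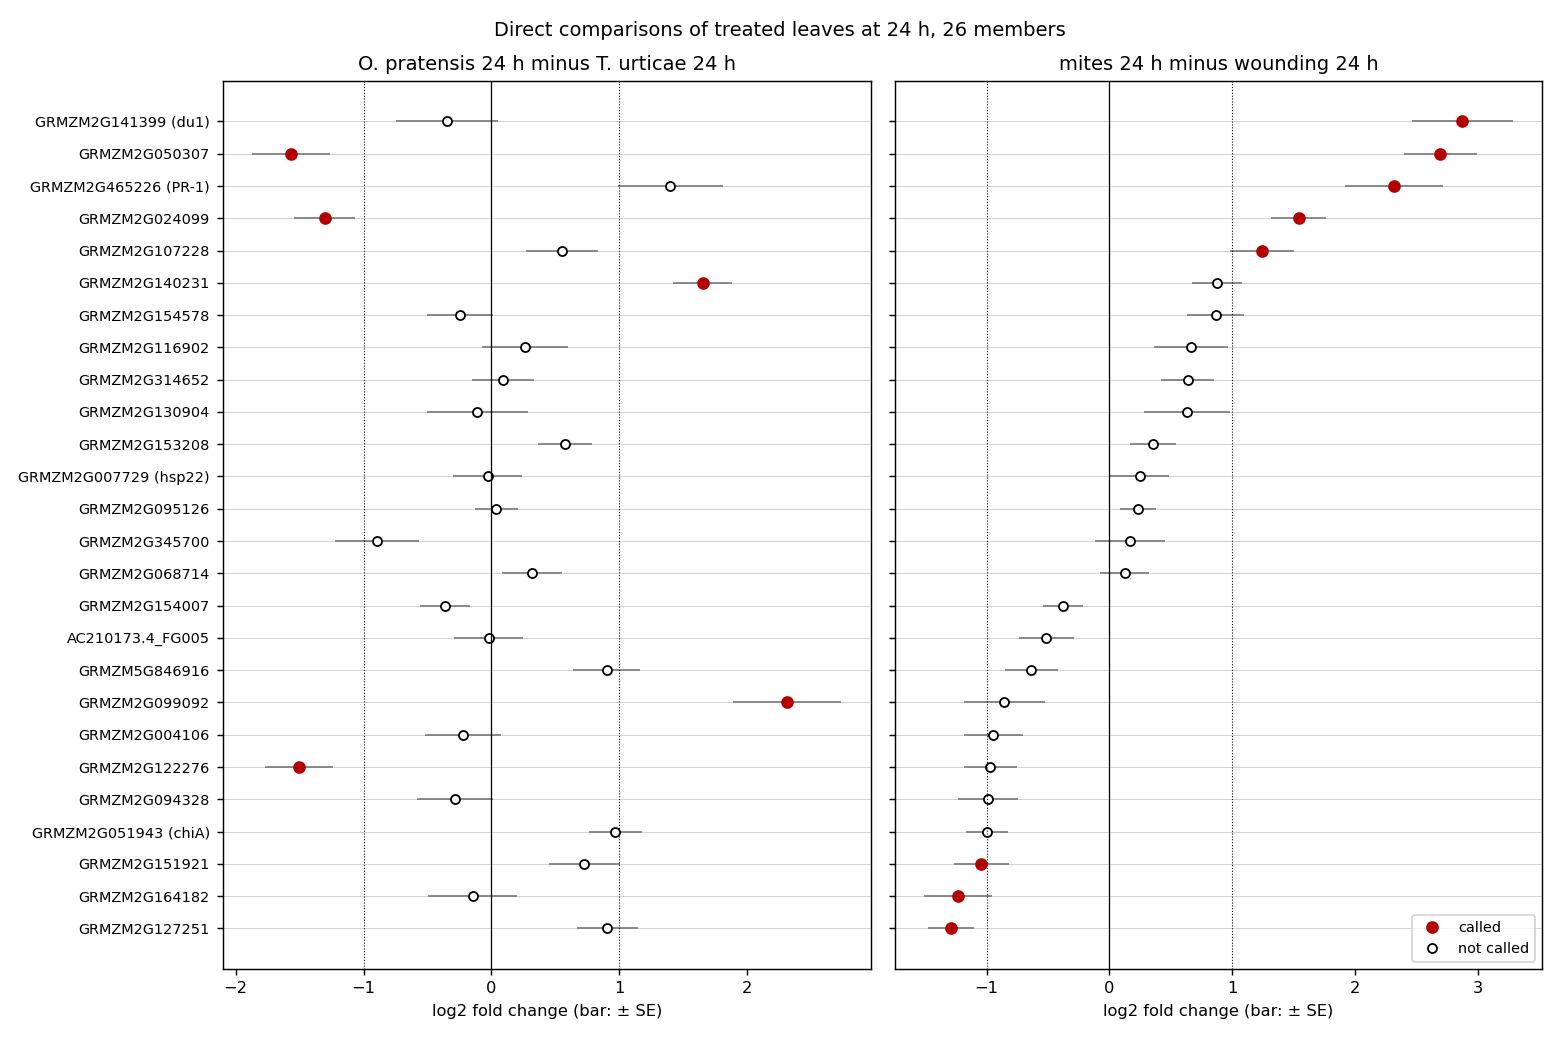
Log2 fold change ± SE of the 26 late genes (rows) between *O. pratensis* and *T. urticae* leaves at 24 h (left) and between the mean of both mites and wounded leaves at 24 h (right); filled points passed the limits on the adjusted p (0.01) and on the log2 fold change (1 in either direction, dotted lines), with 4 leaves per group. On the left 5 genes are filled and on the right 8; GRMZM2G050307 and GRMZM2G024099 are filled in both.

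At 2 h the rule held D of the late genes under 0.5 in every treatment, which limits how far the treatments could differ on the log2(CPM + 1) scale but not in fold change where levels are far under 1 CPM. Between *O. pratensis* and *T. urticae* at 2 h edgeR called none of the 26, against 0.680% of all genes called higher and 0.00% called lower. DESeq2 also called 0, and 2 genes had an unadjusted p under 0.05. The 2 mite groups overlapped for all 26 genes, whereas 4.56% of all genes had a gap. Between mites and wounding at 2 h none was called higher, against 6.41% of all genes, and 4 were called lower with mites, against 14.3%. A gap between all mite-infested and all wounded leaves at 2 h was seen for 4 genes (GRMZM5G846916, GRMZM2G004106, chiA and du1) and for 39.1% of all genes. The median log2 fold change was −0.34 over the 26 genes and 0.02 over all genes.

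The 4 genes called were GRMZM5G846916 at −3.47 ± 0.61 (SE; adjusted p = 1.95e-05), GRMZM2G004106 at −3.15 ± 0.67 (SE; adjusted p = 0.000277), chiA at −2.86 ± 0.68 (SE; adjusted p = 0.000684) and GRMZM2G164182 at −2.15 ± 0.59 (SE; adjusted p = 0.00291). All were rare transcripts, under 1 CPM in every 2 h and control leaf, and they entered the test only through their levels at 24 h. In a fit of the 2 h groups alone none of the 4 passed the filter on low counts, so these calls have no check within the 2 h leaves and rest on values that the rule also used. Beside them, the mesophyll marker sums were lower in each wounded 2 h leaf than in each mite-infested 2 h leaf, and the part of that difference was not tested. GRMZM5G846916 had 0.0375, 0.0679, 0.0908 and 0 CPM in *O. pratensis* 2 h leaves, 0, 0.0486, 0 and 0.0406 CPM in *T. urticae* 2 h leaves, 0.215, 0.458, 0.487 and 0.406 CPM in wounded 2 h leaves and 0.224, 0.0334, 0.0374 and 0 CPM in controls, where 1 control leaf reached the lowest wounded leaf. GRMZM2G004106 had 3 reads in *O. pratensis* 2 h leaves, 3 in *T. urticae* 2 h leaves, 35 in wounded 2 h leaves and 0 in controls. The exact counting interval for its ratio of wounded leaves to controls had a lower end of 9.02, and 18 of the 35 reads came from wounded replicate 4. GRMZM2G164182 had 6, 10, 42 and 1 reads in the same 4 groups, and its wounded leaves overlapped the *T. urticae* leaves. Its call was lost without wounded 2 h replicate 3, at an adjusted p of 0.053.

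In the ratio of summed reads to controls, wounded 2 h leaves had 24.1 times as much chiA (exact counting interval 3.92 to 989), 42.1 times as much GRMZM2G164182 (7.16 to 1702) and 5.26 times as much GRMZM5G846916 (2.44 to 12.98). Smaller ratios were 2.86 for GRMZM2G151921 (1.53 to 5.70), 2.23 for hsp22 (1.44 to 3.53) and 2.06 for du1 (1.49 to 2.86). The intervals cover counting error in summed reads only, not the spread between leaves, and no ratio was tested. Wounded 2 h leaves overlapped the controls for GRMZM5G846916, GRMZM2G151921 and du1. The genes with these ratios met the limit of 0.5 because 1 CPM was added to means that were mostly under 1 CPM. With 0.5 CPM added instead, 34 genes met the rule and 20 of them were among the 26, and with 2 CPM added 16 genes met it and 12 were shared. For another part of the group the early leaves gave no such sign. D was below 0 in all 3 groups at 2 h for 4 genes, among them GRMZM2G130904, which had 26 reads in *O. pratensis*, 20 in *T. urticae* and 25 in wounded 2 h leaves, against 86 in controls.

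**Figure D4:**
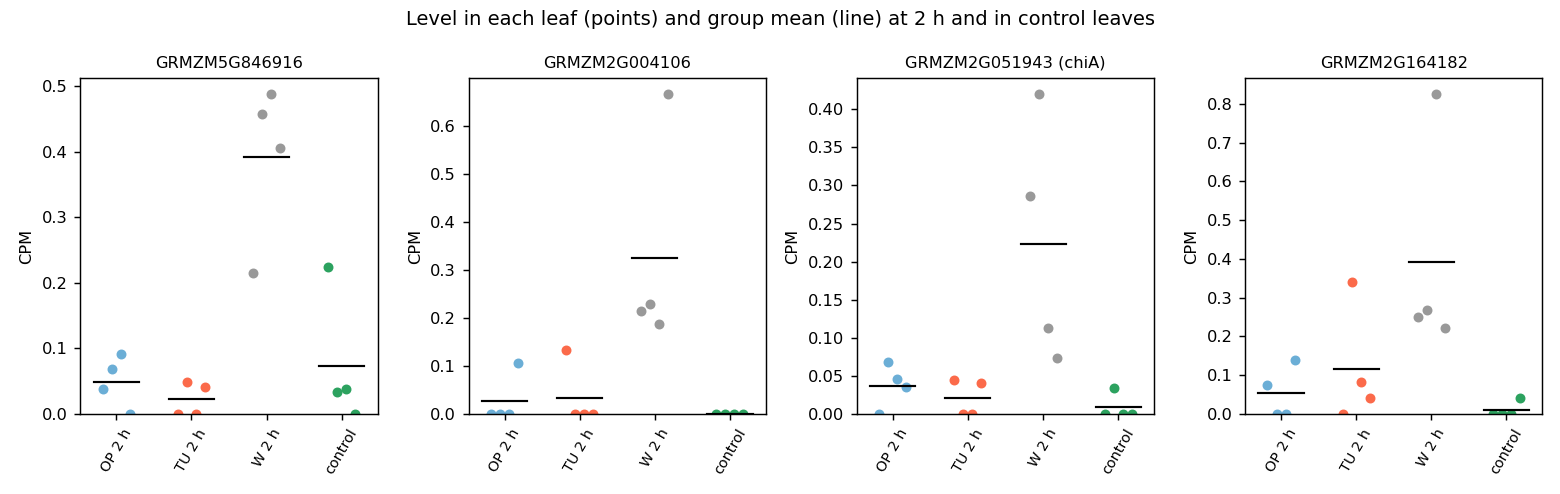
CPM of the 4 late genes called lower with mites than after wounding at 2 h, in each leaf (y axis; points, with the group mean as a line) of the *O. pratensis* (OP), *T. urticae* (TU) and wounded (W) groups at 2 h and of the controls. The 4 genes entered the test only through their 24 h levels, and the rule also used the values shown. All values are under 1 CPM; wounded leaves lie above all others except for 1 control leaf of GRMZM5G846916 and 1 *T. urticae* leaf of GRMZM2G164182.

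The other named chitinase and PR genes had a D of at least 0.5 in wounded 2 h leaves. The RefSeq table names 4 genes as chitinase, and all 4 had a D of at least 1.5 in the 3 groups at 24 h, against 0.613% of all genes, but only chiA met the limits at 2 h. The other 3 had D values in wounded 2 h leaves of 0.70 for chiB (GRMZM2G005633), 5.44 for chiI (GRMZM2G145461) and 1.34 for chn1 (GRMZM2G453805). With mites at 2 h chiB had only 0.05 with *O. pratensis* and −0.03 with *T. urticae*. At 24 h chiB had the same order of groups as chiA, with mean levels of 5.98 CPM in *O. pratensis*, 2.44 CPM in *T. urticae* and 12.7 CPM in wounded leaves. It was called higher with *O. pratensis* than with *T. urticae* (log2 fold change 1.38 ± 0.26, SE; edgeR adjusted p = 0.00222) and lower with mites than after wounding (−1.79 ± 0.20, SE; edgeR adjusted p = 7.03e-08). In contrast chiI (1.36 ± 0.26, SE) and chn1 (3.04 ± 0.25, SE) were called higher with mites than after wounding. These 4 chitinases thus split into 2 called higher with mites, 1 called lower, and chiA just short of the limit on the lower side. They are only those found by name, and the paper reports far more maize chitinase genes that changed with mites or wounding.

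The 4 genes that carry a PR number as their name also all had a D of at least 1.5 at 24 h, and PR-1 alone met the limits at 2 h. D in wounded 2 h leaves was 0.54 for PR-5 (GRMZM2G402631), a thaumatin-like protein, 1.19 for PR-10 (GRMZM2G112524), a ribonuclease-like protein, and 1.58 for PR-6 (GRMZM2G065585, geb1). Between mites and wounding at 24 h, PR-1, PR-5 (1.13 ± 0.32, SE) and PR-6 (1.15 ± 0.27, SE) were called higher with mites, whereas PR-10 was called lower (−1.22 ± 0.17, SE). None of the 4 was called between the 2 mites by edgeR, and 2 of them had an unadjusted p under 0.05.

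Among 16 heat shock genes named by symbol, 3 had a D of at least 1.5 in the 3 groups at 24 h. Besides hsp22 these were hsp101 (GRMZM2G360681), a chaperone that frees proteins from aggregates, with 1.91, 1.61 and 1.65 for *O. pratensis*, *T. urticae* and wounding, and an Hsp70 gene (GRMZM2G310431) with 2.27, 2.11 and 2.46. Both stood above controls in wounded 2 h leaves, with D values of 1.89 and 1.02, and both were called lower with mites than after wounding at 2 h. Most of the other heat shock genes had a D under 0.5 in wounded 2 h leaves. Among 10 starch synthesis genes named by symbol only du1 reached the limit. The other 9 had D values at 24 h from −0.59 to 0.46 and were under 0.5 in wounded 2 h leaves as well. The granule-bound starch synthase gene waxy (GRMZM2G024993) was called lower with mites than after wounding at 24 h, the opposite direction to du1. Its mean levels were all under 1 CPM, at 0.25 with *O. pratensis*, 0.29 with *T. urticae*, 0.73 with wounding and 0.25 in controls. With mites it thus stood near controls. Of 10 proteinase inhibitor genes found by name only wip1 (GRMZM2G156632), a Bowman-Birk type inhibitor, had a D of at least 1.5 in the 3 groups at 24 h, and it had 4.08 in wounded 2 h leaves. The 10 do not include MPI, which the paper also lists among serine protease inhibitor genes upregulated by mite feeding. Of 141 genes named as transcription factors 1 had a D of at least 1.5 in the 3 groups at 24 h, and none was among the 26.

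The 217 other genes that stood at least 1.5 above controls in all 3 groups at 24 h had a D of at least 0.5 in at least 1 group at 2 h. Of the 26 late genes 5 (19.2%) were called higher with mites than after wounding at 24 h and 3 (11.5%) lower, whereas by the same test 87 of the 217 (40.1%) were called higher and 9 (4.15%) lower. The median log2 fold change between mites and wounding at 24 h was 0.20 for the late genes and 0.70 for the 217. At 2 h 4 of the 26 late genes were called lower with mites than after wounding, against 185 of the 217 (85.3%). The limits at 2 h largely fixed this difference in advance, so nothing is drawn from it. Of the 243 genes, 213 had a D of at least 0.5 in wounded 2 h leaves, and no late gene could. The 2 sets of genes were defined by the rule, so their shares are given without a test.

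In the order of RefSeq genes the nearest pair of late genes were GRMZM2G095126 and GRMZM2G153208, with 6 genes between them, and the next nearest were GRMZM2G024099 and GRMZM2G154007, with 21. No 2 of the matched late genes were direct neighbours.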

How the data were processed

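Poly(A) RNA of 28 maize leaves was sequenced from stranded libraries. Per the labels and the study's methods, the authors aligned reads to the B73 RefGen_v3 genome with STAR 2.5.2b and counted uniquely aligned reads per gene on the transcribed strand with HTSeq 0.6.0, and the deposited values are these raw counts. A gene is therefore counted apart from an antisense partner, but near-identical copies lose shared reads. From the counts, CPM used the column total, and CPM was not divided by transcript length, so levels were compared between groups and not between genes. The 4 leaves of a group came from separate plants.

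Tests used edgeR 4.0.16 (R 4.3.3): TMM scaling, filterByExpr by group, and glmQLFit with 1 mean per group over all 28 libraries, with 4 contrasts between treatments and Benjamini-Hochberg adjustment over 22339 genes. SE is the absolute log2 fold change divided by the square root of F. The procedure was tested on simulated data. Alternatives were DESeq2 1.42.0, RLE scaling, no filter, an adjusted p of 0.05, glmTreat, fitting just the groups in a contrast, a replicate block, and leaving out each library. Comparisons of treatments with controls and of times were not tested, since the rule used them.

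The genes, lists and tests were chosen with earlier results of these data known. Genes were named if they had 1 of the 8 highest mean CPM at 24 h, 1 of the 6 largest minimum D at 24 h, up to 4 calls per direction and comparison, a family keyword, or a place nearest to a limit. GRMZM2G107228, GRMZM2G094328, AC210173.4_FG005, the PR, heat shock and starch lists and the genes beside them were named after their values were seen. Names came from the RefSeq gene table, which holds symbols and no descriptions, so peroxidase, P450, kinase and most other family keywords matched no gene. 2 of 7 planned leaf markers were not named there and were dropped. Protein and promoter sequences and motifs were not analysed here.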

Additional observations from a re-analysis of the deposited data

Results flagged for a closer look

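Single leaves stood apart from the other 3 of their group, with a gap to them above Dixon's 95% critical value, in 9 of 94 groups of values tested (groups with a mean of at least 1 CPM). Chance gives about 1 in 20. In 4 of the 9 the leaf was *T. urticae* 24 h replicate 4, which also had the highest mean over the 26 late genes of its group, 4.11 on the log2(CPM + 1) scale. It had 19.9 CPM of GRMZM2G024099 (14.9 to 15.6 in the other 3 leaves), 5.43 CPM of GRMZM2G099092 (1.81 to 2.01), 5.07 CPM of GRMZM2G151921 (2.64 to 3.04) and 19.4 CPM of GRMZM2G154578 (14.8 to 15.4).

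The widest gap was that of du1 (GRMZM2G141399) in *O. pratensis* 24 h replicate 3, at 83.4 CPM against 18.7 to 19.6 CPM in the other 3 leaves. *T. urticae* 24 h replicate 1 was low for GRMZM5G846916, at 2.59 CPM (4.45 to 4.76). In wounded 24 h leaves replicate 3 had 4.83 CPM of GRMZM2G024099 (2.61 to 2.98) and replicate 1 had 7.55 CPM of GRMZM2G127251 (6.04 to 6.29). *O. pratensis* 2 h replicate 1 had 4.46 CPM of GRMZM2G154007 (2.27 to 2.58).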

How the results depend on the processing

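The number of late genes followed the limits. It was 48 with a lower limit at 24 h and 13 with a limit of 2, 12 with a limit of 0.25 at 2 h and 49 with 0.75, and 16 with 2 CPM added before taking logs. With TMM scaling it was 22, and leaving out each library in turn gave 23 to 33.

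Of the 5 late genes called between *O. pratensis* and *T. urticae* at 24 h, glmTreat against a fold change of 2 left 0, and leaving out libraries gave 3 to 6. Between mites and wounding at 24 h glmTreat left 3 of 8, and leaving out libraries gave 8 to 11. Between mites and wounding at 2 h glmTreat left 2 of 4, leaving out libraries gave 3 to 4, and a fit of only the groups compared called 1, which was none of the 4, since 13 of the 26 genes then passed the filter and the 4 were not among them. Between the mites at 2 h every alternative gave 0. The other settings kept the counts within 1.5 times.

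For 17 fold changes of 14 genes, values were followed under the alternatives other than glmTreat and the adjusted p of 0.05. All 265 such values kept their direction and 253 kept the call. The 4 genes called between mites and wounding at 2 h have no value in the fit of only the groups compared, where they did not pass the filter. Leaving out a library lost 11 calls, and the fit of only the groups compared lost GRMZM2G099092 between the mites (adjusted p 0.0244).

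The study used randomized blocks, but the labels do not tie replicate numbers to blocks, so the numbers were not taken to pair the leaves. Deviations from group means correlated at −0.247 to 0.332 over 84 same-numbered pairs (median 0.129, against −0.041 for different numbers), 47 of them above 0.1, and 19 of 28 samples correlated best with their own number, a hint from the data that the numbers share something. With a replicate block 5, 9, 0 and 4 genes were called between the mites at 24 h, mites and wounding at 24 h, the mites at 2 h, and mites and wounding at 2 h. The 1 added call was GRMZM2G122276, lower with mites than after wounding at 24 h (log2 fold change −1.008 with the block and −0.97 without).

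Depth limits the values of the rare transcripts at 2 h, which rest on 0 to 42 reads per group.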
